A study of Gallus gallus with 24 samples.

Results

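The genes described are 8 members of cholesterol synthesis and of its feedback control, measured across hypothalamus samples from 24 broiler chickens. They are 6 enzymes of the pathway (IDI1, FDFT1, SQLE, LSS, SC5D and DHCR7) and 2 proteins of the endoplasmic reticulum that act on its regulation (INSIG1 and ERLIN1). The members were looked up by gene name among the 16779 genes of the expression table, and 7 of the 8 were found by name. The table gives no name for the eighth, IDI1, which was taken from the row described there as an isopentenyl-diphosphate delta isomerase; RefSeq names that gene IDI2. All 8 were among the 13742 genes with enough reads to be tested.

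The birds were Ross 308 broilers, a commercial meat-type line (spelled Ros 308 in the sample labels), aged 42 days, with 1 library per bird and 6 birds per group. Group CON received a basal diet at 24 °C, group A a diet with 1% L-citrulline at 24 °C, group B the basal diet at 35 °C and group C the L-citrulline diet at 35 °C. L-citrulline is an amino acid that the body turns into arginine. The 35 °C environment began at day 28, humidity was 60% in both environments, and each treatment consisted of 6 replicates of 12 chickens. The labels give neither the sex of the birds nor the number of chambers at each temperature, so an effect of chamber cannot be told apart from one of temperature.

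Cells build cholesterol from acetyl units through mevalonate, isoprenoid units, squalene and lanosterol. When membranes of the endoplasmic reticulum are rich in sterol, INSIG proteins hold back the SCAP protein and with it the transcription factor SREBP2, which otherwise switches on the genes of the pathway together; this scheme was worked out mainly in mammalian cells. The brain makes its own cholesterol, because lipoproteins of the blood hardly pass the blood-brain barrier, and oligodendrocytes, the cells that wrap axons in cholesterol-rich myelin, are known as large producers. Myelin basic protein, encoded by MBP, is one of the main proteins of myelin, and the level of its mRNA was used here to describe how rich in myelin transcripts each sample was.

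Libraries held 12635239 to 15001037 gene counts. Values are given as CPM, read counts relative to library size with libraries scaled by the TMM method, or, where genes are compared with one another, as FPKM, which also divides by gene length and uses unscaled library totals. Of 11 markers of hypothalamic neurons and territories all had counts, with means of 4519 FPKM for AVP and 33.2 FPKM for CRH, while PMCH was at 0 in at least 1 bird. Means of POMC, PMCH, RAX, SIX6 and NKX2-1 were low, at 0.864 to 2.70 FPKM. Between birds NKX2-1 ran from 0.204 to 6.28 FPKM and HCRT from 0.490 to 128 FPKM. Samples differed in makeup: MBP alone took 0.758% to 3.01% of the counts of a library, and the choroid plexus gene TTR ranged from 5.75 to 2726 FPKM. Genes of chromosome W, which female chickens carry, divided the birds into 12 with high and 12 with low levels, and 2, 4, 2 and 4 of the 6 birds of CON, A, B and C were high. In none of the 7 comparisons of diet and temperature did any gene of the table pass an adjusted p of 0.05 by edgeR's quasi-likelihood test with Benjamini-Hochberg adjustment, and 416 to 1039 genes per comparison had an unadjusted p under 0.05. DESeq2 called 0 to 8 genes per comparison and limma voom 0 to 1, none of them a member.

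The members were transcribed at clearly different levels. FDFT1, squalene synthase, which joins a pair of farnesyl units in the first step committed to sterols (gene ENSGALG00000016665, GRCg6a 3:107359160-107370240, plus strand), was the highest per length with 72.4 ± 8.46 FPKM (SD, n = 24). IDI1, which interconverts the 5-carbon isoprenoid building blocks (ENSGALG00000006723, 2:10454430-10459537, minus strand), followed with 65.5 ± 10.9 FPKM. DHCR7, which catalyses the last step of one branch of the pathway by reducing 7-dehydrocholesterol (ENSGALG00000004106, 5:1895074-1901741, plus strand), had 47.2 ± 6.78 FPKM. SC5D, the sterol desaturase that makes 7-dehydrocholesterol (ENSGALG00000037065, 24:3559479-3564721, minus strand), had 39.2 ± 3.18 FPKM.

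INSIG1, the sterol-dependent brake on SREBP2 processing (ENSGALG00000017394, 2:7910368-7918977, plus strand), had 38.1 ± 8.26 FPKM. SQLE, squalene epoxidase, a rate-limiting enzyme of the sterol branch (ENSGALG00000036915, 2:138683095-138697225, plus strand), had 34.7 ± 4.97 FPKM. LSS, lanosterol synthase, which closes the sterol rings (ENSGALG00000006198, 7:6913221-6923292, minus strand), had 26.8 ± 5.48 FPKM. ERLIN1, known from mammals as a membrane scaffold in the degradation of proteins of the endoplasmic reticulum (ENSGALG00000003308, 6:10003715-10019905, plus strand), was the lowest with 10.9 ± 0.886 FPKM.

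Birds mostly shared this order. Each gene exceeded the next in the order in at least 20 of 24 birds, with these exceptions: SC5D exceeded INSIG1 in 12 of 24 birds, so that this pair did not differ in level beyond its spread, and INSIG1 exceeded SQLE in 16 of 24. Members also differed in how much they varied. The SD of log2 CPM between birds was 0.12 for ERLIN1 and 0.13 for SC5D, the steadiest, and 0.30 for LSS and 0.31 for INSIG1, the most variable, against a median of 0.20 over all genes tested and 0.48 for MBP. Groups took up 45.1% of the variance of log2 CPM between birds in ERLIN1 and 41.2% in SC5D. The shares were 20.1% in FDFT1 and 23.1% in DHCR7, and 7.79% in LSS, 8.53% in IDI1, 8.96% in INSIG1 and 9.17% in SQLE. Means of 4 groups take up part of the variance even where groups do not differ. That part and the share over all genes are not given here, and no gene passed in any comparison of groups.

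**Figure D1:**
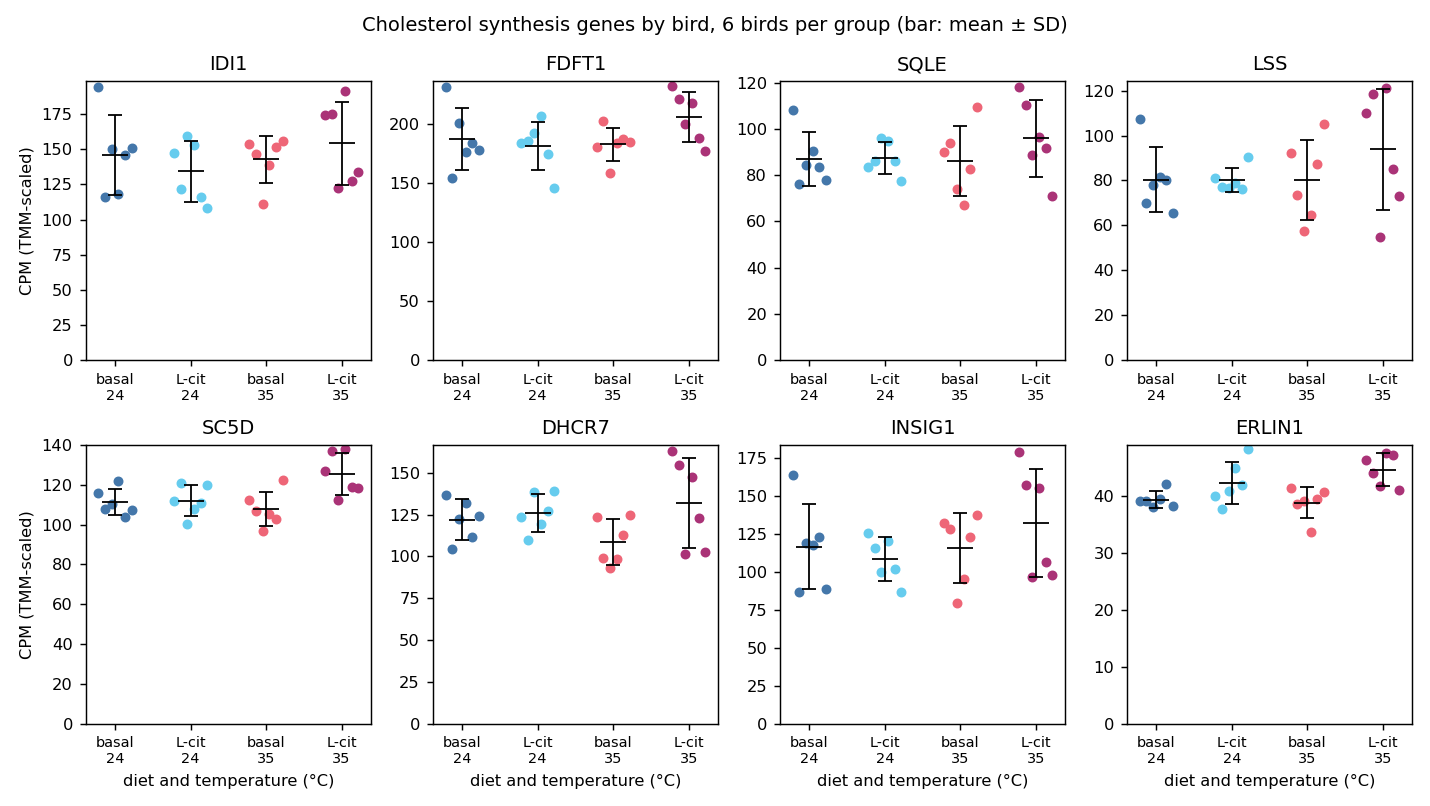
Expression of the 8 genes in CPM (vertical axis, starting at 0) in each of 24 birds, by diet and temperature (horizontal axis, 6 birds per group); points are birds and bars the mean ± SD. In all 8 panels the highest group mean is that of L-citrulline at 35 °C, and in all 8 the groups overlap.

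Heat under the basal diet was read from B against CON, and the differences measured were small. All 8 members were slightly lower on average, with a median log2 fold change of -0.025 against 0.00 over all genes, and 0 of 8 had an unadjusted p under 0.05, as did 3.69% of all genes tested. The shared direction rested on single birds: without bird 1 of CON 5 members were higher and 3 lower (median 0.047), without bird 3 of B again 5 and 3 (median 0.016), and without bird 4 of B 4 and 4. DHCR7 had 104, 123 and 137 CPM in CON (lowest, median and highest of 6 birds) and 93.0, 106 and 124 CPM in B. The groups overlapped, and no bird of B lay above the highest of CON. Its log2 fold change of -0.17 ± 0.11 (SE, 95% interval -0.39 to 0.061) was the furthest from 0 of the 8, with an adjusted p of 1.00 by edgeR. The other 7 had log2 fold changes of -0.045 to -0.0066, with intervals that leave room for changes in either direction: -0.17 to 0.084 for SC5D and -0.36 to 0.35 for INSIG1.

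Of the other 13 measured enzymes of the pathway, 4 were higher and 9 lower in B, with a median of -0.074 and 0 at an unadjusted p under 0.05. HMGCS1, which makes HMG-CoA, had a log2 fold change of -0.11 ± 0.13. SREBF2, which encodes SREBP2, had -0.066 ± 0.065. The closest to the threshold among the enzymes were HSD17B7 (0.16 ± 0.11) and NSDHL (-0.20 ± 0.14), both of the removal of methyl groups from lanosterol. MBP had a log2 fold change of -0.15 ± 0.25, and 10 of 13 oligodendrocyte and myelin genes were lower, with a median of -0.061. Among the markers of other cells, 5 of 5 ciliated ependyma genes were higher in B (median 0.25). Of these, 1 had an unadjusted p under 0.05 by edgeR, where 294 of all 13742 genes were higher. Of 11 hypothalamic genes 9 were higher (median 0.29), and of 4 choroid plexus genes 2 were higher and 2 lower. The part of these cells in the members' values was not tested.

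In birds on the L-citrulline diet the corresponding comparison, C against A, gave higher averages for all 8 members at 35 °C. The median log2 fold change was 0.17 against 0.007 over all genes. Members were correlated between birds, so these 8 values are not independent. Of the 8, 1 (SC5D) had an unadjusted p under 0.05, against 3.38% of all genes that were higher at that limit, and 0 passed the adjustment over all genes. SC5D had 100, 111 and 121 CPM in A and 112, 123 and 138 CPM in C. Its groups overlapped, with 3 birds of C above every bird of A and 4 birds of A below every bird of C. The log2 fold change was 0.16 ± 0.062 (95% interval 0.034 to 0.29, adjusted p = 0.661 by edgeR).

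INSIG1 had 86.7, 109 and 126 CPM in A and 96.5, 131 and 179 CPM in C, where 3 birds lay above all of A and the other 3 within its range. The log2 fold change of 0.28 ± 0.17 had a 95% interval of -0.069 to 0.64. FDFT1 had 146, 184 and 206 CPM in A and 177, 208 and 232 CPM in C, a log2 fold change of 0.18 ± 0.089 with an interval of -0.0011 to 0.37. The remaining log2 fold changes ran from 0.066 for DHCR7 to 0.23 for LSS. Without bird 1 of C the value for DHCR7 was -0.0081. Of the other 13 enzymes 11 were higher and 2 lower, with a median of 0.075; HMGCS1 had 0.14 ± 0.13 and FDPS, farnesyl diphosphate synthase, 0.19 ± 0.098. SCAP, the escort of SREBP2, had 0.15 ± 0.061 and SREBF2 0.11 ± 0.065. MBP had 14244, 19037 and 29032 CPM in A and 7416, 22557 and 31183 CPM in C. Of 13 oligodendrocyte and myelin genes 11 were higher in C than in A, with a median of 0.14 and 0 at an unadjusted p under 0.05 by edgeR. Among the markers of other cells, 5 of 5 ciliated ependyma genes were lower in C than in A. Of these, 4 had an unadjusted p under 0.05 by edgeR, where 457 of all 13742 genes were lower at that limit. The summed levels of the 5 were 39.1 to 55.7 CPM in C and 55.1 to 88.7 CPM in A. All 4 choroid plexus genes were lower as well (3 at that limit, median -0.64), and so were 9 of 11 hypothalamic genes (3 at that limit, median -0.42). All 4 microglial genes measured were higher, with a median of 0.31. The part of these cells in the members' values was not tested.

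L-citrulline at 24 °C, in A against CON, gave members on both sides of 0. Of the 8, 4 were higher and 4 lower, the median log2 fold change was 0.001, and 0 of 8 had an unadjusted p under 0.05, as did 6.97% of all genes. These counts moved with single birds of CON: 7 members were higher and 1 lower without bird 1 (median 0.052), and 2 were higher and 6 lower without bird 2, 5 or 6. With every bird included, the values ran from -0.12 ± 0.13 for IDI1 and -0.10 ± 0.17 for INSIG1 to 0.10 ± 0.060 for ERLIN1. IDI1 had 116, 148 and 194 CPM in CON and 108, 135 and 160 CPM in A, with overlapping groups. Of the other 13 enzymes 7 were higher and 6 lower, with a median of 0.007. Of these, 1 was lower at an unadjusted p under 0.05 by edgeR, where 471 of all 13742 genes were lower. HMGCS1 had -0.030 ± 0.13 and SREBF2 -0.068 ± 0.065. In this comparison 5 of 5 ciliated ependyma genes were higher in A at an unadjusted p under 0.05 by edgeR. Of all 13742 genes, 487 were higher at that limit. All 4 choroid plexus genes were higher (2 at that limit, median 0.82). MBP had 0.13 ± 0.25, and all 13 oligodendrocyte and myelin genes were higher in A (1 at that limit, median 0.11).

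The largest average differences between diets were measured at 35 °C, in C against B. All 8 members were higher with L-citrulline, by 0.11 to 0.28 on the log2 scale. The median was 0.20 against 0.006 over all genes tested. As the members were correlated between birds, these are not 8 independent values. At an unadjusted p under 0.05, 3 of the 8 were higher (SC5D, ERLIN1 and DHCR7), as were 3.75% of all genes. None passed the adjustment over all genes, where the adjusted p of each of the 3 was 0.747 by edgeR.

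SC5D had 96.9, 106 and 122 CPM in B and 112, 123 and 138 CPM in C. In C, 3 birds lay above every bird of B and 4 of B below every bird of C, and the groups overlapped in the rest. The log2 fold change was 0.22 ± 0.062 (95% interval 0.087 to 0.35). ERLIN1 had 33.7, 39.3 and 41.5 CPM in B and 41.0, 45.2 and 47.5 CPM in C. It was the member whose groups came closest to separating, with 5 birds of C above all of B and 5 of B below all of C. Its log2 fold change was 0.20 ± 0.060 (95% interval 0.077 to 0.33). DHCR7 had 93.0, 106 and 124 CPM in B and 101, 135 and 163 CPM in C, where birds 1, 2 and 4 were above all of B and birds 3 and 6 among the low values. Its log2 fold change was 0.28 ± 0.11 (95% interval 0.055 to 0.51), and it was 0.21 without bird 1 of C and 0.23 without bird 2, in both cases with an unadjusted p over 0.05.

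In the other 5 members 2 or 3 birds of C lay above all of B, and every interval included 0. LSS had 57.6, 80.4 and 105 CPM in B and 54.9, 97.6 and 121 CPM in C, so that C held both the lowest and the highest bird of the study. The log2 fold change was 0.23 ± 0.16 (-0.11 to 0.57). FDFT1 had 158, 184 and 202 CPM in B and 177, 208 and 232 CPM in C (0.17 ± 0.089, -0.011 to 0.36). The log2 fold changes of INSIG1, SQLE and IDI1 were 0.19 ± 0.17, 0.16 ± 0.12 and 0.11 ± 0.13.

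The level of MBP moved in the same direction in this comparison. It was 10310, 16268 and 23733 CPM in B and 7416, 22557 and 31183 CPM in C, and its log2 fold change was 0.42 ± 0.25 (95% interval -0.10 to 0.94, adjusted p = 0.747 by edgeR). Of 13 oligodendrocyte and myelin genes 12 were higher in C, with a median of 0.29, and their summed level was 22798 to 50463 CPM in B and 16023 to 67293 CPM in C. All 4 microglial genes were higher too (1 at an unadjusted p under 0.05, median 0.34), with summed levels of 122 to 292 CPM in B and 152 to 261 CPM in C. Of 11 hypothalamic genes 10 were lower (median -0.53), with summed levels of 2030 to 5900 CPM in B and 788 to 4503 CPM in C. All 5 ciliated ependyma genes were lower (median -0.083). The part of microglial, hypothalamic and ependymal cells in the members' values was not tested. With MBP as a covariate the log2 fold changes of SC5D, ERLIN1 and FDFT1 were 0.17, 0.16 and 0.17, that of DHCR7 was 0.17, and those of LSS, INSIG1, IDI1 and SQLE were 0.036, 0.075, 0.055 and 0.097. With the W chromosome score as a covariate they were 0.22, 0.20, 0.12, 0.27, 0.20, 0.10, 0.058 and 0.075 in the same order of genes. Of the other 13 enzymes 11 were higher and 2 lower in C than in B, with a median of 0.15; HMGCS1 had 0.22 ± 0.13, MSMO1, a methyl sterol oxidase, 0.21 ± 0.11 and FDPS 0.20 ± 0.098. SREBF2 had 0.11 ± 0.065. The cholesterol exporters of the lysosome NPC1 and NPC2 had 0.28 ± 0.14 and 0.36 ± 0.20.

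**Figure D2:**
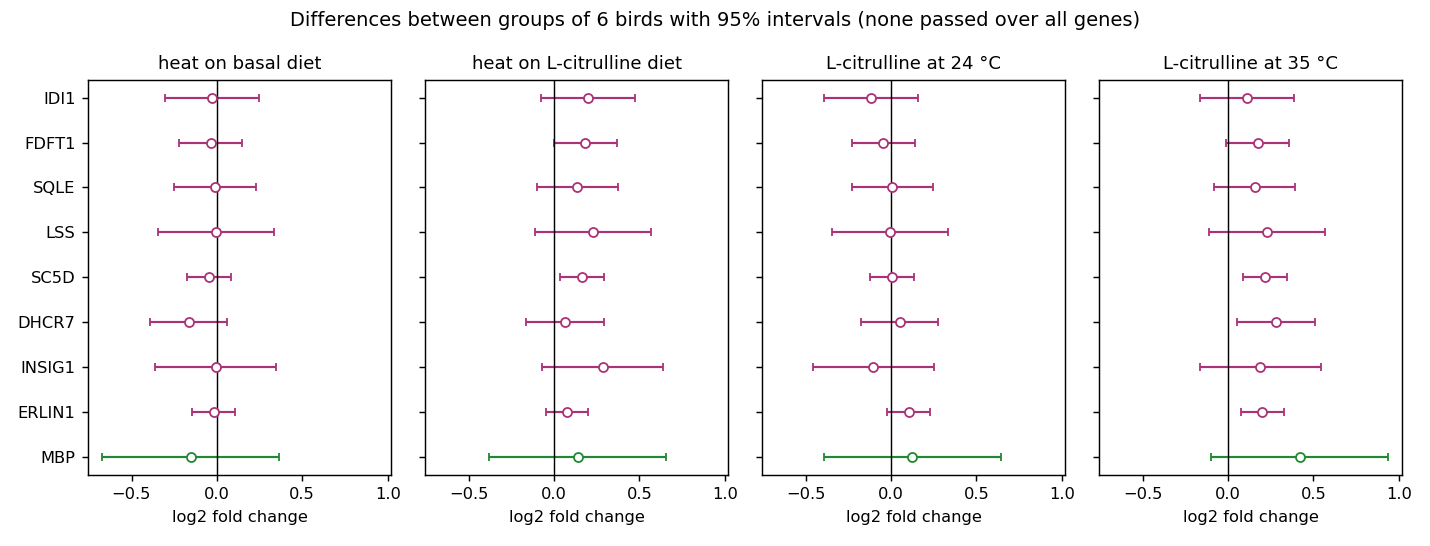
Log2 fold changes (horizontal axes) of the 8 genes and MBP (rows) in the 4 comparisons of diet and temperature, with 95% intervals, 6 birds per group, from the edgeR fit to all 24 libraries. At 35 °C all 8 values for L-citrulline lie between 0.11 and 0.28, and at 24 °C they lie on both sides of 0.

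These comparisons share groups: C enters both the heat comparison on L-citrulline and the diet comparison at 35 °C, so the 2 sets of values are not independent. Averaged over temperatures, L-citrulline went with log2 fold changes of 0.15 ± 0.043 for ERLIN1, 0.11 ± 0.044 for SC5D and 0.17 ± 0.078 for DHCR7, each with an adjusted p of 0.796 by edgeR. These were the 3 members at an unadjusted p under 0.05, against 3.22% of all genes in that direction. The diets were not balanced for W level: each L-citrulline group held 4 high-W birds and each basal group 2. Averaged over diets, heat went with values of -0.050 ± 0.078 for DHCR7 to 0.14 ± 0.12 for INSIG1, and 0 of 8 had an unadjusted p under 0.05 (3.03% of all genes). The difference between the diet effects at 35 °C and 24 °C was positive in all 8, with a median of 0.22. Its only member at an unadjusted p under 0.05 was SC5D (0.21 ± 0.088, adjusted p = 0.624 by edgeR), against 3.3% of all genes in that direction. That a diet effect differs between temperatures was therefore not shown for any member.

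In the authors' deposited table of the 6 pairwise comparisons, 1 of 48 values for these genes had an unadjusted p under 0.05 and 0 passed the adjustment. It was DHCR7 in B over A, with a log2 fold change of -0.22 and p = 0.0306 in the authors' deposited table. Over all genes there, 1 of 16048 passed the adjustment in C over B and 0 in each of the other comparisons. The share of all genes at the unadjusted limit is not given here. For C over B the authors' deposited table gives 0.22 for SC5D (p = 0.0566), 0.28 for DHCR7 (p = 0.0580) and 0.20 for ERLIN1 (p = 0.109).

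Single birds were high or low in most members at once, and most of the high ones were in C. The mean z-score over the 8 members was 1.65, 1.49 and 1.51 in birds 1, 2 and 4 of C. It was 0.20 in bird 5 of C, and -0.53 and -0.54 in birds 3 and 6. The higher averages of C thus rest in part on the same birds, to a degree that differed between members. In IDI1 and INSIG1, 3 of the 6 birds of C lay above the median of B. In SC5D and ERLIN1 all 6 did. Ranking the 24 birds for each gene, bird 1 of C was among the 4 highest in 8 of 8 members, birds 2 and 4 of C in 7 of 8, and bird 1 of CON in 5 of 8. Bird 3 of B was among the 4 lowest in 7 of 8. Bird 6 of A was the exception to such a common level. It had the highest ERLIN1 of the study at 48.3 CPM and the highest LSS (90.4 CPM) and DHCR7 (139 CPM) of its group, but the lowest FDFT1 (146 CPM) and IDI1 (108 CPM) of all 24 birds.

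The members were next related to MBP between birds. In bulk tissue, fewer oligodendrocytes and less RNA per oligodendrocyte cannot be told apart. MBP ranged from 7416 CPM in bird 3 of C to 31183 CPM in bird 4 of C. In an edgeR fit with group means and the log2 CPM of MBP, all 8 members had a positive slope and 4 passed the adjustment over all genes. Of the 13741 genes tested, 22.9% passed, 11.3% with a positive slope. The members that passed were LSS, DHCR7, SC5D and ERLIN1. Differences between the slopes of members were not tested.

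LSS had the steepest slope, 0.48 ± 0.089 log2 units per log2 unit of MBP (95% interval 0.30 to 0.66, adjusted p = 3.32e-04 by edgeR). The birds with the most MBP, birds 4 and 1 of C, had 121 and 110 CPM of LSS, and the bird with the least, bird 3 of C, had 54.9 CPM, the lowest of the study. Bird 6 of A, with the third highest MBP, had 90.4 CPM. Within groups, MBP went with 58.3% of the variance of LSS.

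DHCR7 had a slope of 0.29 ± 0.063 (0.16 to 0.42, adjusted p = 0.00161 by edgeR), with 50.2% of its variance within groups. Birds 1 and 4 of C had 163 and 147 CPM of DHCR7 and bird 3 of C had 101 CPM, but the lowest value, 93.0 CPM in bird 3 of B, came with 16806 CPM of MBP, which is below the middle of the range. SC5D had 0.13 ± 0.040 (adjusted p = 0.0200) and ERLIN1 0.12 ± 0.040 (adjusted p = 0.0395, both by edgeR), with 36.5% and 34.9% of their variance within groups. The ERLIN1 call was lost with any of 8 single birds left out (1 or 6 of A, 1, 4 or 6 of B, and 1, 3 or 4 of C, adjusted p up to 0.104) and with the replicate number as a block (0.0998). That of SC5D was lost without bird 6 of B (0.0519) or bird 3 of C (0.0909), all by edgeR. These shallow slopes come with the small spread of both genes between birds.

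The other 4 did not pass. INSIG1 had a slope of 0.28 ± 0.12 (0.025 to 0.54, adjusted p = 0.108), as steep as that of DHCR7 but with more scatter. SQLE had 0.18 ± 0.082 (adjusted p = 0.118) and IDI1 0.14 ± 0.10 (adjusted p = 0.378, all by edgeR). FDFT1, the most abundant member, had 0.021 ± 0.070, with a 95% interval of -0.12 to 0.17 that lies below the whole interval of LSS. MBP went with 0.252% of its variance within groups. Its highest value, 232 CPM in bird 1 of C, came with the second highest MBP, its lowest, 146 CPM in bird 6 of A, with the third highest, and bird 3 of C, with the least MBP, was above the median of all birds.

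**Figure D3:**
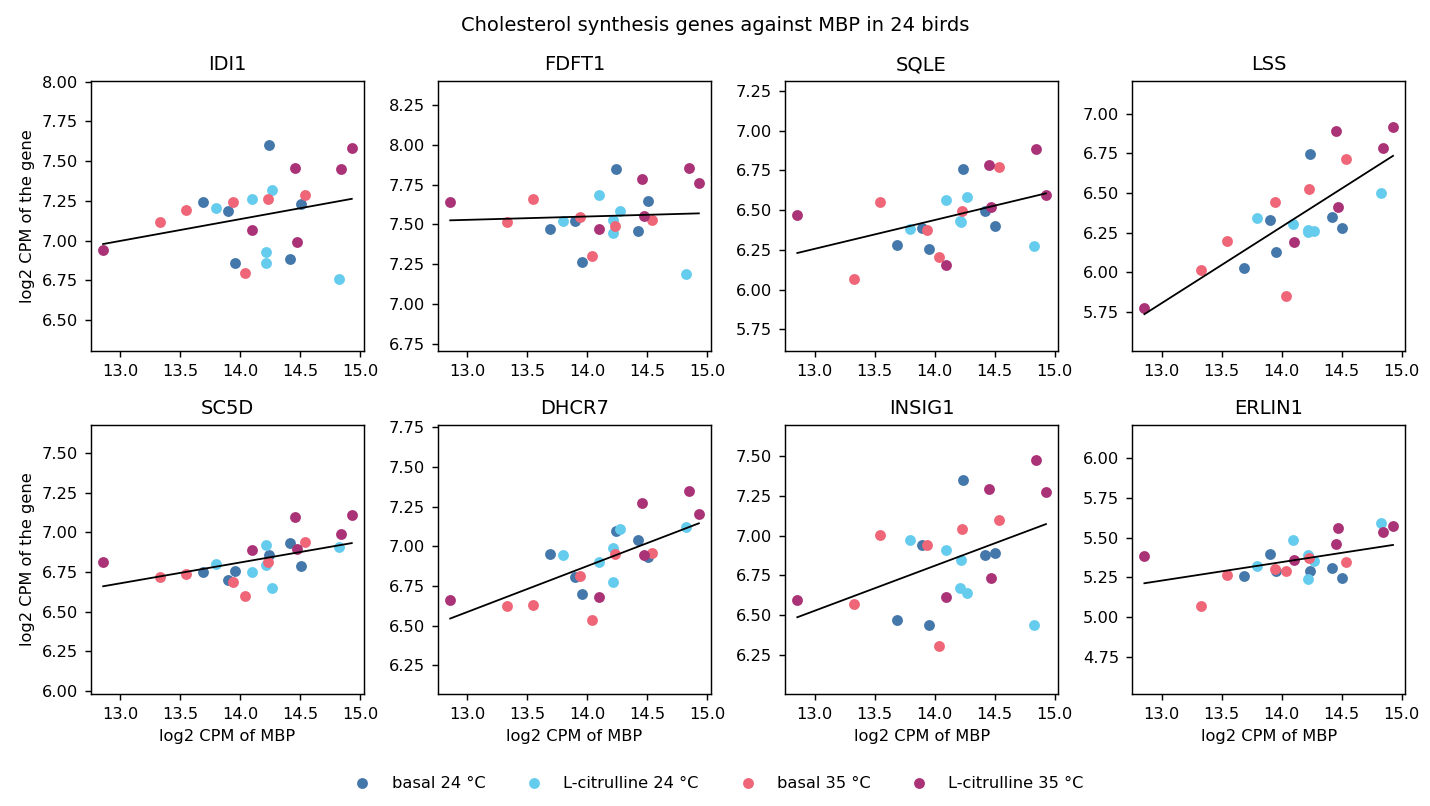
Log2 CPM of each of the 8 genes (vertical axes, all spanning the same number of log2 units) against log2 CPM of MBP (horizontal axes) in 24 birds, coloured by group; lines have the slope of the edgeR fit with group means and pass through the mean of all birds. The points rise with MBP in LSS (r = 0.76) and DHCR7 (r = 0.73) and scatter around a nearly level line in FDFT1 (r = 0.11).

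Pearson's correlations without a model gave the same 4 genes, and Spearman's gave SQLE in place of ERLIN1. Over 24 birds, Pearson's r with MBP was 0.76 for LSS (Spearman's rho 0.74), 0.73 for DHCR7 (0.75), 0.59 for ERLIN1 (0.49) and 0.58 for SC5D (0.69), with adjusted p of 9.72e-04, 7.47e-04, 0.0148 and 0.0172 for r by permutation. The permutations numbered 100000 and p-values were adjusted over all 13741 genes, of which 12.5% passed with a positive r. For rho the adjusted p by permutation were 0.00213, 9.80e-04, 0.0675 and 0.00439 in the same order, where 11% of all genes passed with a positive rho. With group means subtracted and birds permuted within groups, r was 0.76, 0.71, 0.59 and 0.60 (adjusted p = 0.00566, 0.00630, 0.0164 and 0.0246), and 10.2% of all genes passed with a positive r. SQLE had r = 0.45 (adjusted p = 0.0928) and rho = 0.54 (0.0372), INSIG1 r = 0.41 (0.127) and rho = 0.38 (0.189), IDI1 r = 0.24 (0.444) and rho = 0.31 (0.308), and FDFT1 r = 0.11 (0.760) and rho = 0.24 (0.442), all by permutation.

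Leaving out the birds with the most extreme MBP kept the correlations but not all calls of the edgeR fit. The correlations of this paragraph include differences between group means, which the fit takes out, so they do not measure the same relation. Without birds 3 of C and 4 of B, the farthest from the median of log2 CPM, r was 0.67 for LSS, 0.70 for DHCR7, 0.67 for ERLIN1 and 0.70 for SC5D, with adjusted p of 0.00997, 0.00443, 0.0123 and 0.00506 by permutation. The slopes of the edgeR fit without both birds were 0.44 (adjusted p = 0.0503) for LSS, 0.34 (0.0373) for DHCR7, 0.17 (0.0956) for SC5D and 0.13 (0.195) for ERLIN1, so that DHCR7 alone of the members passed, among 1197 genes in place of 3145. In the 12 birds with high and the 12 with low W levels, r was 0.84 and 0.75 for LSS, 0.78 and 0.74 for DHCR7, 0.50 and 0.72 for SC5D and 0.38 and 0.86 for ERLIN1. With the W score in the edgeR fit SQLE (slope 0.24, adjusted p = 0.00273) and INSIG1 (0.35, adjusted p = 0.0130) passed as well.

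Within single groups of 6 birds the picture was less even. LSS and DHCR7 had a positive r in all 4 groups, from 0.51 to 0.91 and from 0.46 to 0.79, and so had SC5D (0.36 to 0.76). ERLIN1 had r of -0.25 in CON and 0.65 to 0.85 in the other groups. In group A, INSIG1 (-0.92), FDFT1 (-0.76), IDI1 (-0.65) and SQLE (-0.44) ran against MBP. Bird 6 of this group has far more MBP than the other 5. Among the other 5, INSIG1 was 126 CPM in bird 1, with the least MBP, and 99.7 CPM in bird 3, with the most. FDFT1, IDI1 and SQLE were higher in bird 3 than in bird 1. Without bird 6 of A, INSIG1 passed in the edgeR fit over the remaining birds of all groups (slope 0.35, adjusted p = 0.0427). Of the 24 such fits with 1 bird left out, INSIG1 passed in this 1 and not in the other 23 (adjusted p up to 0.399 by edgeR).

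Most other enzymes of the pathway also rose with MBP. All 13 had positive slopes on MBP, with a median of 0.28, and 10 passed by edgeR. MVD, the decarboxylase of mevalonate diphosphate, had 0.57 ± 0.064 (adjusted p = 7.69e-07). MVK, the kinase of mevalonate, had 0.55 ± 0.056 (1.62e-07, both by edgeR). CYP51A1, the lanosterol demethylase, had 0.42 ± 0.055, HMGCS1 0.39 ± 0.068 and ACAT2, the thiolase at the start of the pathway, 0.23 ± 0.045, and all 3 passed. FDPS (0.17 ± 0.069) and PMVK, phosphomevalonate kinase (0.099 ± 0.077), were among those that did not.

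Of 10 regulators of sterol sensing and SREBP control 2 passed, both with a positive slope, against 11.3% of all genes in that direction. Among them was INSIG2 (0.18 ± 0.054, adjusted p = 0.0167), and SREBF2 had 0.10 ± 0.046 (adjusted p = 0.116, both by edgeR). Of 19 genes of cholesterol uptake, transport and turnover 5 rose and 1 fell. The lysosomal exporters NPC2 (0.56 ± 0.12) and NPC1 (0.48 ± 0.052) and the 25-hydroxylase CH25H (0.56 ± 0.17) were among those that rose, and the scavenger receptor SCARB1 (-0.20 ± 0.068) fell. For scale, 10 of 12 oligodendrocyte and myelin genes other than MBP rose, with a median slope of 0.88 over the 12, among them CLDN11 (0.96 ± 0.042) and ERMN (1.06 ± 0.090). MOG and ASPA did not pass.

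Some markers of other cells moved with MBP too, where 22.9% of all genes passed. Of 7 neuronal genes 3 fell (RBFOX3 -0.40 ± 0.083, SYT1 -0.25 ± 0.048 and STMN2 -0.21 ± 0.045), of 7 astrocyte genes 3 rose and 1 fell, and 2 of 4 microglial genes and 3 of 5 endothelial genes rose. Of 11 hypothalamic genes 2 rose and 1 fell. Of 3 genes listed as oligodendrocyte precursor markers, BCAS1 rose (0.76 ± 0.041), PTPRZ1 fell (-0.13 ± 0.046) and PDGFRA did not pass (0.076 ± 0.053). By edgeR 0 of 4 choroid plexus and 0 of 5 ciliated ependyma genes passed. At an unadjusted p under 0.05 by edgeR the counts were 0 and 2, both of the 2 falling, where 2398 of 13741 genes fell. The part of all these markers in the members' slopes was not tested.

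**Figure D4:**
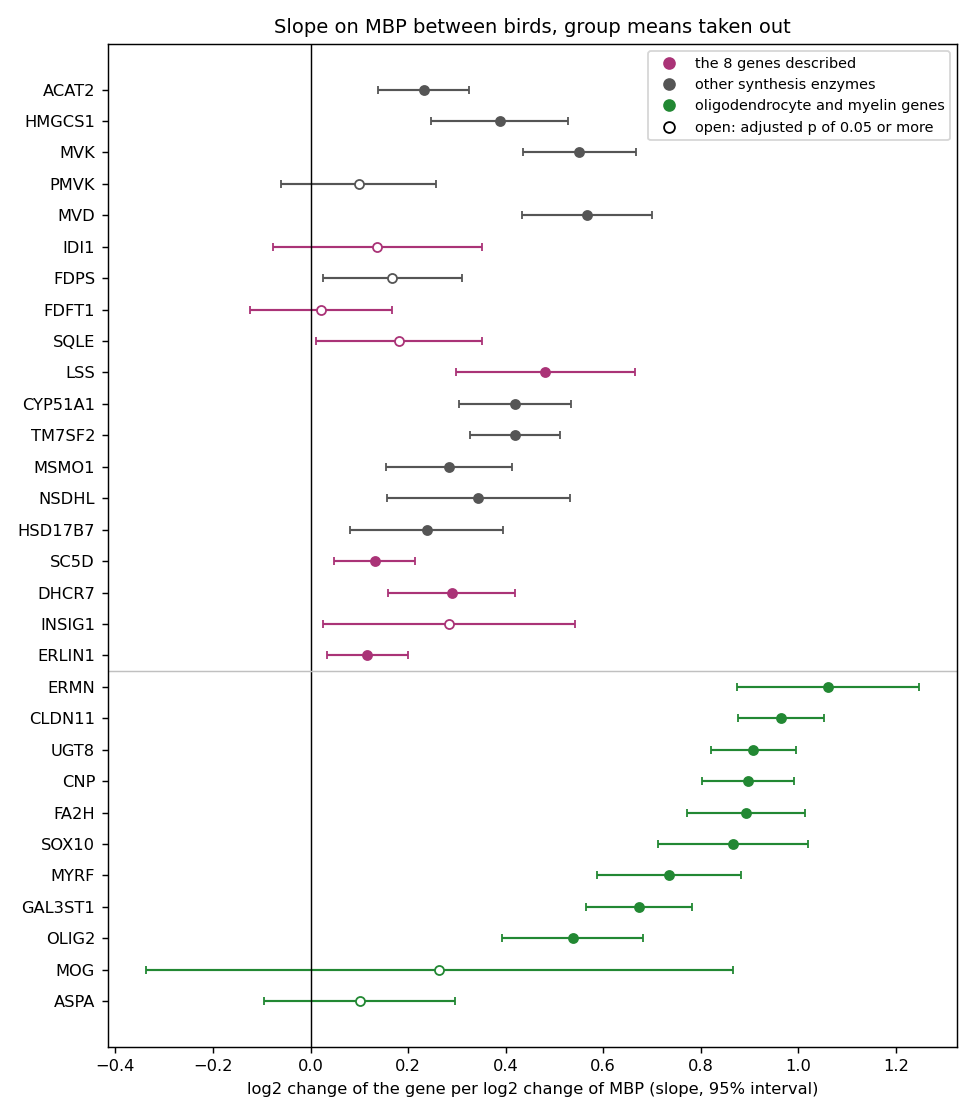
Slope of each gene on MBP between birds (horizontal axis, log2 units per log2 unit of MBP, with 95% interval) for the 8 genes, other enzymes of the pathway and oligodendrocyte and myelin genes, with group means taken out; filled points passed an adjusted p of 0.05 over all genes. LSS (0.48) lies among the steeper enzymes and FDFT1 (0.021) is the closest to 0, and most myelin genes lie at 0.54 or above.

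The members were also compared with each other, as a description without a test, since genes of the same libraries share depth and tissue makeup. Over 24 birds all 28 pairs were positively correlated, with a median r of 0.61 (0.13 to 0.82), against a median of 0.0007 between members and all other genes. After group means and MBP were taken out the median was 0.57, and 24 of 28 pairs were positive. FDFT1, which did not follow MBP, was close to other members: of all genes tested IDI1 was the nearest to it (r = 0.82), INSIG1 the second (0.82) and SQLE the fourth (0.73). INSIG1 and LSS had r = 0.82 and LSS and DHCR7 0.81. ERLIN1 stood apart, with r of 0.13 with IDI1 to 0.60 with DHCR7, and of -0.19 to 0.17 with the other 7 once groups and MBP were taken out. SC5D was loosely tied to some members as well. Its r was 0.32 with IDI1, 0.40 with FDFT1 and 0.73 with LSS, and 0.15, 0.19 and 0.56 once groups and MBP were taken out.

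Of all other genes, the 8 most like the mean z-score of the members over 24 birds were MSMO1 (r = 0.88), HMGCS1 (0.86), DUSP15 (0.84), WASF2 (0.83), SOGA1 (0.82), the fatty acid desaturase SCD (0.82), CNOT1 (0.81) and ITPR2 (0.81). MBP had r = 0.61 and the place 424 in that order.

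**Figure D5:**
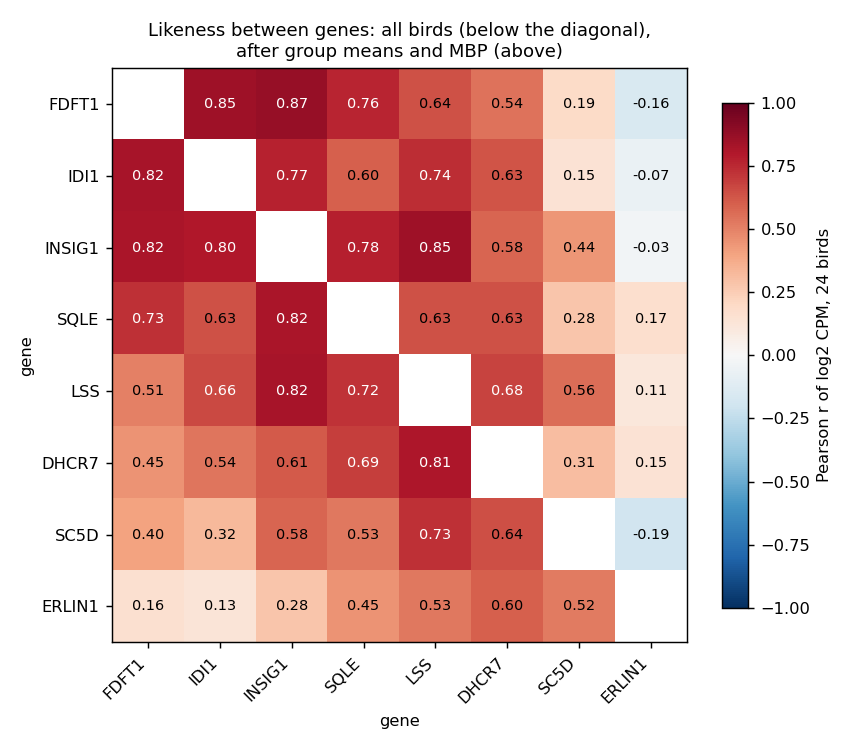
Pearson's r of log2 CPM between the 8 genes (both axes) over 24 birds, below the diagonal for the values as measured and above it after group means and MBP were taken out; the colour scale runs from -1 to 1. FDFT1, IDI1, INSIG1, SQLE, LSS and DHCR7 keep r of 0.54 or more with each other above the diagonal. SC5D lies at 0.15 to 0.56 with these genes, and ERLIN1 lies at -0.19 to 0.17.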

How the data were processed

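The authors deposited, per the file headers, read counts and FPKM per gene for 24 libraries. Build GRCg6a and the tools TopHat, HISAT2, HTSeq and DESeq appear in the submitters' processing notes, with versions and strand setting not given in the sources used here. Deposited FPKM equal count over gene length and library total. From the authors' deposited DESeq tables, log2 fold changes and p-values were copied, not used in tests. Members and gene lists were chosen with earlier results of these data known, and the genes named are all 8 members, HMGCS1 and SREBF2, and from each list the smallest p or most extreme slopes; markers of other cells, and MOG and ASPA under the slopes, were named after their values were seen, and some genes that the rule names are not reported here. Unnamed rows were given RefSeq symbols by gene identifier (1139 genes). The row named TM7SF2 is LBR in RefSeq.

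Counts were fitted in R 4.3.3 with edgeR 4.0.16 (TMM factors 0.967 to 1.03, filterByExpr with a minimum count of 10, quasi-likelihood F test, Benjamini-Hochberg over all genes, threshold 0.05) as 4 group means over all 24 libraries, with 20 residual degrees of freedom and a biological coefficient of variation of 0.186. Relations to MBP used its centred log2 CPM (prior count 2) beside the group means, and correlations used scipy 1.17.1 and numpy 2.4.6. Scripts were tested on simulated data. No libraries of a group were copies (chi-square per degree of freedom 7.19 to 88.3 over 60 pairs). Birds, 1 from each replicate per the series text, are the replicates. Alternatives were limma voom 3.58.1, DESeq2 1.42.0, other size factors, no filter, covariates, a replicate block and leaving out each bird; library sizes without myelin counts were added after seeing the data. Intervals of fold changes are for the difference between group means, with the spread between birds as the error. They do not cover differences between chambers. No sequences were used here.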

Additional observations from a re-analysis of the deposited data

Results flagged for a closer look

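In group A, bird 6 stood apart from the other 5 in 2 genes. Its MBP level was 29032 CPM, where the others had at most 19725 CPM, and its LSS level was 90.4 CPM, where the others had at most 81.3 CPM. These were 2 of 36 checks (9 genes in 4 groups), of which chance flags about 1 in 20. Without this bird the slope of LSS on MBP still passed.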

How the results depend on the processing

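With 0 genes called in every comparison of diet and temperature, the alternatives moved single values more than calls. By DESeq2 the genes called were 6 for heat on the L-citrulline diet, 8 for L-citrulline at 24 °C, 1 for L-citrulline at 35 °C and 2 for the interaction, and 0 in the other 3. By limma voom, and with MBP as a covariate, 1 was called for heat on the L-citrulline diet. No member was among them: the lowest adjusted p of a member was 0.467 by DESeq2, 0.589 by voom, 0.376 with MBP as a covariate and 0.138 leaving out 1 bird. With 1 bird left out, 0 to 1 genes were called for heat on the L-citrulline diet and for L-citrulline at 24 °C, and 1503 (without bird 3 of C) to 3270 for the relation to MBP. Without the 2 birds farthest from the median MBP, 1197 genes were called by slope. By Pearson's r, computed without taking out group means, 1950 were called. Some log2 fold changes near 0 changed sign, none of them called. By voom LSS had 0.0098 for L-citrulline at 24 °C. With the replicate block, LSS had 0.0044 there and INSIG1 0.0042 for heat on the basal diet. Replicate numbers did not pair the birds (same-number deviations correlated at a median of -0.077 over 36 pairs, and 3 of 24 libraries correlated best with their own number), and with the block ERLIN1's slope on MBP no longer passed (0.11, adjusted p = 0.0998). With MBP as a covariate, SQLE, LSS and INSIG1 had 0.018, 0.070 and 0.046 for heat on the basal diet, SC5D and SQLE -0.0076 and -0.0094 for L-citrulline at 24 °C, and LSS and INSIG1 -0.011 and -0.022 for L-citrulline averaged over temperatures. With the W score, INSIG1 had 0.0022 for heat on the basal diet and -0.043 for averaged L-citrulline, and SQLE -0.071 for L-citrulline at 24 °C. Leaving out 1 bird, heat on the basal diet gave -0.093 to 0.062 for SQLE, -0.10 to 0.093 for LSS, -0.087 to 0.032 for FDFT1, -0.088 to 0.069 for IDI1, -0.080 to 0.11 for INSIG1 and -0.039 to 0.018 for ERLIN1. Heat on the L-citrulline diet gave -0.0081 to 0.13 for DHCR7. L-citrulline at 24 °C gave -0.016 to 0.037 for SC5D, -0.027 to 0.081 for SQLE, -0.060 to 0.094 for LSS, -0.097 to 0.023 for FDFT1 and -0.18 to 0.018 for INSIG1. Averaged L-citrulline gave -0.041 to 0.045 for IDI1 and -0.011 to 0.10 for INSIG1. The slope of FDFT1 on MBP ran from -0.0041 to 0.067. The slopes of LSS and DHCR7 passed with any 1 bird left out, that of SC5D in 22 of 24 such fits and that of ERLIN1 in 16 of 24. With the mean of the myelin genes in place of MBP, with other size factors, without the count filter and with library sizes free of myelin counts, these 4 members passed and the other 4 did not. The causes of these shifts were not tested.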
